A study of Mus musculus with 16 samples.

Results

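Of the transcription factors measured in macrophages activated by LPS and immune complexes (LPS/ICs), 10 genes of the KLF and C/EBP families are described here: Klf2, Klf3, Klf4, Klf6, Klf7, Klf10, Klf13, Cebpa, Cebpb and Cebpd. They were chosen by name as family members and were found by symbol among the 47069 genes of the count table. All 10 were among the 13211 genes with enough counts to be tested. The cells were macrophages grown from the bone marrow of C57BL/6 mice aged 8 to 10 weeks (BMMs), and every library came from cells primed overnight with 10 ng/mL of IFNγ and then stimulated for 1 hr with 100 ng/mL of Salmonella LPS together with ovalbumin opsonized by IgG. One group received 25 μM DAPT, a gamma-secretase inhibitor (GSI), and the other received the vehicle DMSO at 0.01%. Each group had 2 replicates with 4 columns of counts each, which were summed to 4 libraries. Unstimulated cells were not analysed here. Gamma-secretase cuts Notch receptors and also other membrane proteins, so DAPT is not selective for Notch. The labels do not say that replicates came from separate cultures or animals, so that p-values measure only the spread between these samples, which may be technical.

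KLF proteins bind GC-rich and CACCC-containing DNA through zinc fingers at their C-terminal end, and they share these fingers with the SP factors. In macrophages, KLF2 and KLF4 are known to restrain or redirect inflammatory gene expression, KLF6 is known as a promoter of it, and KLF10 is a TGFβ-inducible factor. C/EBP proteins bind DNA as dimers through a basic leucine zipper. C/EBPα directs the commitment of myeloid precursors, whereas C/EBPβ and C/EBPδ are known to be induced by inflammatory stimuli and to act on cytokine and acute-phase genes.

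The stretches before the start sites of 4 of the genes are given because their log2 fold changes were the largest in size among the genes with a promoter in the reference table, although that of Cebpa depended on 1 library, and because GC-rich and CACCC letters are those that KLF and SP proteins bind. They are the RefSeq sequences on GRCm38.p6, 5′ to 3′ on the strand of the gene, without bases of annotated exons. Capitals mark GC boxes (GGGCGG on either strand) and CACCC boxes (CACCC on either strand). The Klf2 stretch is chr8:72318812-72319032 (plus strand), that of Klf4 is chr4:55532476-55532725 (minus strand), that of Cebpa is chr7:35119043-35119292 (plus strand) and that of Klf7 is chr1:64121492-64121639 (minus strand), which lies inside the annotated span of Klf7.
Klf2: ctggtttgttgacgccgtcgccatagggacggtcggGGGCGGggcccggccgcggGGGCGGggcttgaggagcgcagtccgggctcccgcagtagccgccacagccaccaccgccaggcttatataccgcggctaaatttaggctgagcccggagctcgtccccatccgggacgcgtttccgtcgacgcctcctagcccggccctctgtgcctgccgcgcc
Klf4: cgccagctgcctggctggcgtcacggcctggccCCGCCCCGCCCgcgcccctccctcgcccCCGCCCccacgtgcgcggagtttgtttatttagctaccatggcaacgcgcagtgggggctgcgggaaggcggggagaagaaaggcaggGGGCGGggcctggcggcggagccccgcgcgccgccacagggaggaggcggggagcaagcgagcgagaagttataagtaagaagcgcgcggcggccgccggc
Cebpa: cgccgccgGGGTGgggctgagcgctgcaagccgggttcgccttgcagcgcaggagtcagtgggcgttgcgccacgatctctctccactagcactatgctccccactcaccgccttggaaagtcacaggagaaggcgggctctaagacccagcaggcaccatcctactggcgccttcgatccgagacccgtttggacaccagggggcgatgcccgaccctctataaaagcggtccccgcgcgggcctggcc
Klf7: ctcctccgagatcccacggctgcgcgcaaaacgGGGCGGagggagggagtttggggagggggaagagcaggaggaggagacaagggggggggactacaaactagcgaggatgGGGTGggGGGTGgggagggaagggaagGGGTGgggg

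In the whole 250-base window before each start, GC boxes were found for 7 of the 8 genes with a promoter in the reference table, against 32.7% of all 32851 promoters, and CACCC boxes for 6 of 8, against 52.0%. Both kinds of match can share bases where they lie next to each other. Positions count back from the RefSeq start, whose window holds 29 bases of GENCODE exon for Klf2 and 102 for Klf7, so that these starts lie inside the GENCODE genes whose coordinates are given with the levels. Klf2 held GC boxes at positions -214 and -195, Klf4 at -217, -212, -189 and -101, and Klf7 at -217. Cebpa held 1 CACCC box, at -242, and a TATA box (TATAAA) at -30, which was found in no other of the 8 genes and in 12.4% of all promoters. The letters TGACG, a shortened CRE, were found for 4 of 8 genes (17.8% of all promoters), among them Klf2 at -241 and Klf4 at -232. The letters TGGGAA, the core bound by the Notch partner RBPJ, were in none of the 8 windows and in 21.6% of all promoters, and the same held for TGANTCA (AP-1, 6.75% of all promoters), the NF-κB motif (1.41%) and TTGCNNAA (C/EBP, 9.56%). The windows were rich in G and C, from 59.2% for Klf7 to 81.6% for Cebpb, and the median of all promoters was 52.4%. A match of letters is a description and not evidence of binding.

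Gene levels were expressed as CPM, the counts of a gene scaled to the size of its library, and the fold change of each gene was tested with edgeR's quasi-likelihood test, whose adjusted p is given as the FDR. Of the 10 genes, 3 rose (Klf2, Klf4 and Cebpd), 4 fell (Klf3, Klf7, Klf10 and Cebpa) and 3 did not pass an FDR of 0.05 (Klf6, Klf13 and Cebpb). Over all genes tested, 40.8% passed, 19.0% as higher and 21.9% as lower with GSI, so that a call was common in this comparison. The second threshold, a log2 fold change beyond 1.5 in size, was met together with the FDR by 2.91% of all genes tested and by none of the 10 genes, whether with edgeR, with or without adjustment, or with DESeq2. For the 10 genes, the median of the log2 fold changes was -0.05 and that of their sizes 0.34, against 0.01 and 0.24 for all genes tested. The GSI and DMSO libraries did not overlap for 6 of the 10 genes, against 70.6% of all genes tested.

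**Figure D1:**
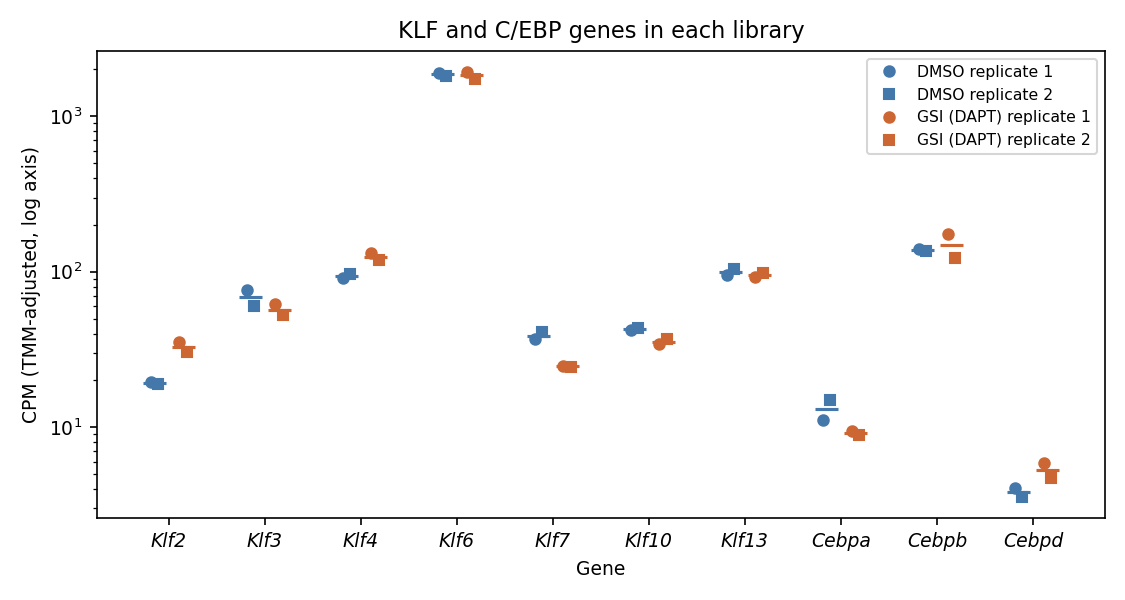
CPM (log axis) of the 10 genes in each library, with DMSO in blue, GSI in orange, circles for replicate 1, squares for replicate 2 and bars for group means. With GSI, both libraries lie above both controls for Klf2 and Klf4 and below them for Klf7 and Klf10, whereas the Klf6, Klf13 and Cebpb libraries overlap.

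Klf2 had the largest rise of the 10 genes. It lies at chr8:72319033-72321656 (GRCm38, plus strand, protein-coding, 3 exons) and encodes a factor best known for keeping endothelial cells, T cells and monocytes quiescent. Its level was 19.5 and 18.9 CPM in the DMSO libraries and 35.4 and 30.3 CPM in the GSI libraries. The groups stood well apart, with GSI replicate 1 the highest. The rise was 1.71-fold, a log2 fold change of 0.78 (SE 0.0875, 95% interval 0.59 to 0.96, n = 2 per group, edgeR FDR = 5.3e-07), and 10.7% of all genes tested had a larger change in either direction. Without any one library it was between 0.66 and 0.88.

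Klf4 also rose. This gene (chr4:55527143-55532466, minus strand) encodes a factor of monocyte differentiation and of alternative activation of macrophages, and one of the reprogramming factors. Its level was 91.3 and 96.9 CPM with DMSO and 131 and 118 CPM with GSI, without overlap. The log2 fold change was 0.41 (SE 0.0738, 95% interval 0.25 to 0.56, n = 2 per group, edgeR FDR = 0.000175), a 1.32-fold rise.

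Klf7 had the largest fall. It lies at chr1:64029447-64122282 (minus strand) and is known mainly for neuronal and adipocyte differentiation. Its level was 36.8 and 40.9 CPM with DMSO and 24.9 and 24.3 CPM with GSI, so that both GSI libraries lay well below both controls. It fell by 36.7%, a log2 fold change of -0.66 (SE 0.0805, 95% interval -0.83 to -0.49, n = 2 per group, edgeR FDR = 1.49e-06). On the other strand, Gm26649 shares 3196 exon bases with Klf7 and had 7 and 9 counts with DMSO and 0 and 0 with GSI, few beside the counts of Klf7.

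Klf10, which encodes the TGFβ-inducible early response factor, fell less. Its level was 42.4 and 43.4 CPM with DMSO and 34.0 and 36.7 CPM with GSI, without overlap. The log2 fold change was -0.28 (SE 0.0756, 95% interval -0.44 to -0.12, n = 2 per group, edgeR FDR = 0.00581). Without any one library it was between -0.33 and -0.23.

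Klf3 encodes a repressor that recruits CtBP. Its level was 76.6 and 60.2 CPM with DMSO and 61.7 and 52.5 CPM with GSI. The groups overlapped, because GSI replicate 1 lay above DMSO replicate 2. Klf3 nevertheless passed as lower, with a log2 fold change of -0.26 (SE 0.0969, 95% interval -0.46 to -0.06, n = 2 per group, edgeR FDR = 0.039). It no longer passed without DMSO replicate 1 (log2 fold change -0.08, FDR 0.607), without GSI replicate 2 (-0.15, FDR 0.198), with DESeq2 (FDR 0.0623) or with upper quartile normalization (FDR 0.079).

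Klf6 and Klf13 did not pass. Klf6, an early response gene of activated macrophages, had 1887 and 1824 CPM with DMSO and 1926 and 1732 CPM with GSI, so that the highest and the lowest library were both GSI. Its log2 fold change was -0.02 with a 95% interval of -0.18 to 0.14 (edgeR FDR = 0.854). Klf13, known as a factor for late RANTES (CCL5) expression in T cells, had 95.9 and 104 CPM with DMSO and 92.2 and 98.3 CPM with GSI. Its libraries overlapped, and its log2 fold change was -0.07 with a 95% interval of -0.22 to 0.08 (edgeR FDR = 0.463).

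The C/EBP genes did not move together. Cebpa, an intronless gene at chr7:35119293-35121928 (plus strand), fell, Cebpd rose, and Cebpb did not pass. Cebpa had 11.1 and 14.98 CPM with DMSO and 9.47 and 8.89 CPM with GSI, from 439 to 850 counts per library. The groups did not overlap, but the DMSO libraries lay far apart. The log2 fold change was -0.52 (SE 0.119, 95% interval -0.77 to -0.27, n = 2 per group, edgeR FDR = 0.00165). It rested in part on DMSO replicate 2, without which it was -0.28 with an FDR of 0.105.

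Cebpb (chr2:167688915-167690418, plus strand, 1 exon) had 141 and 137 CPM with DMSO and 175 and 123 CPM with GSI, so that the GSI libraries lay on either side of both controls. Its log2 fold change was 0.10 with a 95% interval of -0.12 to 0.32 (edgeR FDR = 0.459). Without GSI replicate 2 it was 0.33 and passed (FDR 0.000337), and without GSI replicate 1 it was -0.17 and did not. Tmem189 shares 312 exon bases with Cebpb on the other strand and had 6688 to 9818 counts per library.

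Cebpd (chr16:15887286-15891031, plus strand) was the least abundant of the 10 genes, with 4.09 and 3.58 CPM with DMSO and 5.87 and 4.70 CPM with GSI. The groups did not overlap, and GSI replicate 2 lay closest to the controls. The log2 fold change was 0.47 (SE 0.142, 95% interval 0.17 to 0.77, n = 2 per group, edgeR FDR = 0.0122). Cebpd no longer passed with DESeq2 (FDR 0.0701), without DMSO replicate 2 (log2 fold change 0.37, FDR 0.109) or without GSI replicate 1 (0.30, FDR 0.156). Spidr shares 562 exon bases with it on the other strand, with 610 to 757 counts per library against 176 to 284 for Cebpd.

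**Figure D2:**
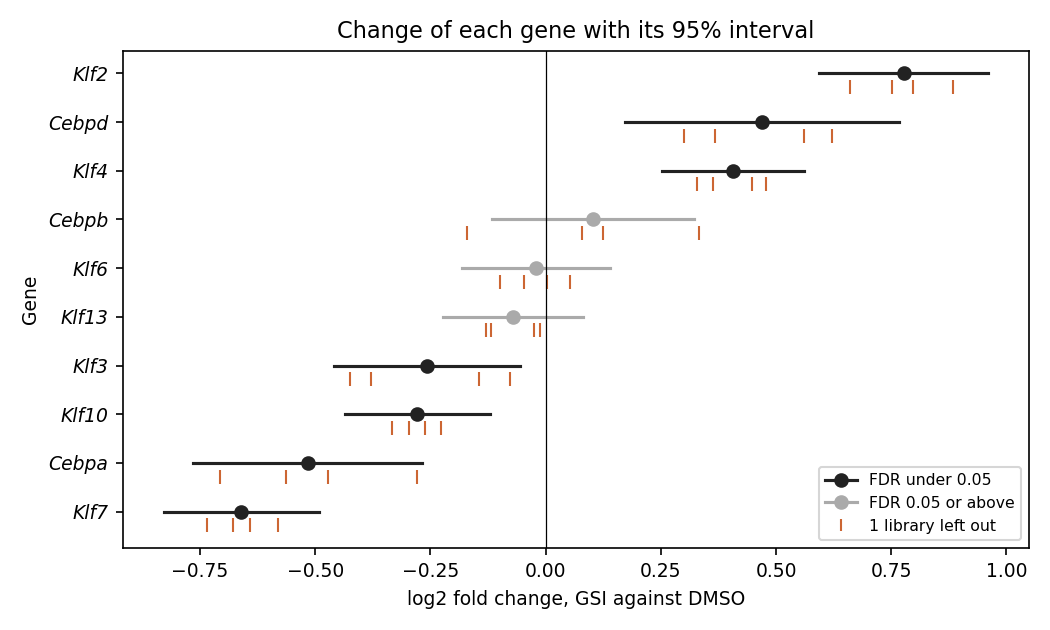
Log2 fold change of each gene, GSI against DMSO (points, with 95% intervals as lines), and the values after leaving out each of the 4 libraries in turn (orange ticks). Klf2, Klf4, Klf7 and Klf10 keep their sign without any one library, whereas the ticks of Cebpb and Klf6 lie on both sides of 0.

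**Figure D3:**
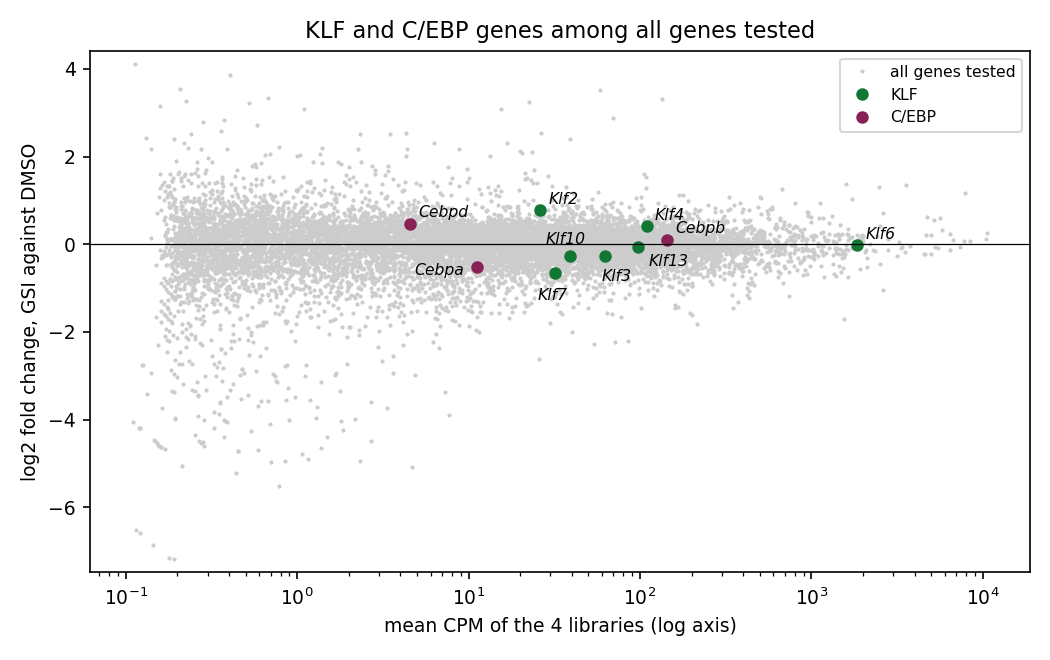
Log2 fold change, GSI against DMSO, against mean CPM of the 4 libraries (log axis) for the 13211 genes tested (grey), with the KLF genes in green and the C/EBP genes in purple. The 10 genes lie between -0.66 and 0.78, within the range of the other genes, and 6.71% of all genes tested had an absolute log2 fold change above 1.

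Levels of different genes were compared as CPM per kb of exon. Klf6 was the most abundant, with a mean of 423 CPM per kb with DMSO and 417 with GSI, and made up 82.3% to 85.2% of the summed level of the 7 KLF genes in each library. Cebpb followed with 92.3 and 99.1 CPM per kb and made up 93.2% to 95.7% of the 3 C/EBP genes. Klf4 came next, with 30.9 CPM per kb with DMSO and 40.9 with GSI, and Klf13 had 13.3 and 12.6. Klf2, with 10.4 CPM per kb with DMSO and 17.8 with GSI, lay below Klf13 in both DMSO libraries and above it in both GSI libraries. Klf10 had 10.3 and 8.46 CPM per kb, Klf3 had 6.08 and 5.08, Cebpa had 4.95 and 3.48, Klf7 had 4.77 and 3.02, and Cebpd was lowest with 1.02 and 1.41.

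Some neighbours in this order did not differ beyond their spread. Klf2 and Klf10 changed places between the DMSO libraries, and so did the order among Klf3, Cebpa and Klf7. With the length of the longest transcript in place of all exons, 5 of the 10 genes had the same rank with DMSO and all 10 with GSI. Klf3 then had 13.1 CPM per kb with DMSO and 10.9 with GSI, and its DMSO mean lay above that of Klf2. The ratio of Cebpb to Cebpa, per length, was 22.2 and 15.99 in the DMSO libraries, against 32.4 and 24.3 in the GSI libraries. That of Klf6 to Klf2 was 40.7 and 40.6 in the former, against 22.9 and 24.03 in the latter. Neither ratio overlapped between the groups. These ratios were not tested.

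**Figure D4:**
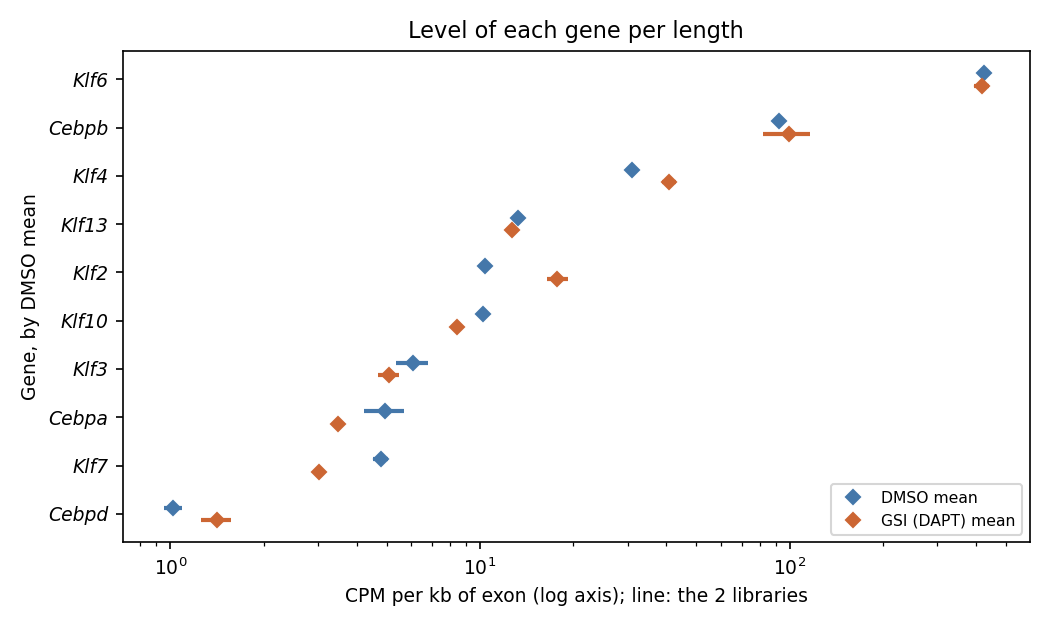
CPM per kb of exon (log axis) for each gene, with diamonds for group means and lines joining the 2 libraries of a group. Klf6 and Cebpb lie highest in both groups, and Klf2 moves from below Klf13 with DMSO to above it with GSI.

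The genes whose levels over the 4 libraries were most like those of Klf2, by Euclidean distance of centred log2 CPM among 7580 genes of at least 10 CPM, were Gsr (distance 0.0445), which encodes glutathione reductase, Cmpk2 (0.0533), an interferon-inducible mitochondrial nucleotide kinase, and Hspa9 (0.0705), a mitochondrial chaperone. Those most like Klf7 were Alpk1 (0.016), a kinase that senses bacterial sugars, Plec (0.0349), the cytolinker plectin, and Rab11fip1 (0.0382), a recycling endosome protein. With only 4 libraries, such likeness is a description.

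Of the other KLF genes, 4 had enough counts to be tested (Klf8, Klf9, Klf11 and Klf16), with log2 fold changes between -0.35 and 0.20. Over all genes tested, 40.8% passed, and 48.8% with the replicate block. None of the 4 passed with edgeR, with or without adjustment, or with DESeq2, but Klf8 did when the replicate number was added as a block (FDR 0.0499). Klf1, Klf5, Klf12, Klf14, Klf15 and Klf17 had at most 4 counts in any library. Among the related SP factors, Sp2 (31.2 and 33.1 CPM with DMSO, 27.8 and 25.1 with GSI) and Sp4 (11.6 and 10.1, then 8.33 and 7.81) fell, with log2 fold changes of -0.28 (edgeR FDR = 0.00885) and -0.42 (edgeR FDR = 0.00367). Sp1 (-0.09, FDR 0.347) and Sp3 (-0.20, FDR 0.0686) did not pass, but Sp3 did with the replicate block (FDR 0.0115). Thus 2 of the 4 SP genes tested passed, and likewise 2 of 4 other genes listed as C/EBP, beside the 40.8% of all genes.

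The 2 other C/EBP genes that passed were those of stress and heterodimer partners. Cebpg, whose protein pairs with other C/EBP and ATF proteins, had 34.2 and 30.8 CPM with DMSO and 54.5 and 50.02 CPM with GSI, a log2 fold change of 0.69 (edgeR FDR = 7.43e-07). Ddit3, which encodes CHOP, a C/EBP partner that lacks normal DNA binding, had 35.0 and 34.1 CPM with DMSO and 85.4 and 72.1 CPM with GSI, a log2 fold change of 1.19 (edgeR FDR = 7.36e-10). Cebpe (0.51, FDR 0.247) and Cebpz (-0.19, FDR 0.0553) did not pass, but Cebpz did with the replicate block (FDR 0.0215). Cebpz was listed by its name only, and its protein is not of the basic leucine zipper kind described above.

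Among 25 tested partners and regulators of KLF and C/EBP factors, 3 rose, 12 fell and 10 did not pass, with a median log2 fold change of -0.16. Over all genes tested, 40.8% passed (19.0% higher and 21.9% lower) and the median was 0.01. Of these, Id1, which encodes an inhibitor of helix-loop-helix factors, had 10.4 and 9.97 CPM with DMSO and 2.54 and 1.76 CPM with GSI (log2 fold change -2.24, edgeR FDR = 2.58e-10). Trib3 and Trib1 encode pseudokinases, and TRIB1 is known to direct the degradation of C/EBPα. They moved in opposite directions.

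Trib3 rose from 7.71 and 9.90 CPM to 34.1 and 41.7 CPM (log2 fold change 2.09, edgeR FDR = 2.24e-11). Trib1 fell from 240 and 237 CPM to 125 and 128 CPM (-0.91, edgeR FDR = 2.18e-09). Mef2c, which encodes a factor that acts upstream of Klf2, fell from 49.2 and 46.4 CPM to 20.9 and 22.6 CPM (-1.13, edgeR FDR = 7.47e-10). The other MEF2 genes tested, Mef2a (-0.57) and Mef2d (-0.33), also passed as lower, whereas Mapk7, encoding the kinase ERK5 that acts on MEF2 factors, passed as higher (0.46, FDR 0.000357). Atf4 also passed as higher (0.90, FDR 5.54e-09). Mef2a, Mef2d, Mapk7 and Atf4 were named after their values were seen.

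**Figure D5:**
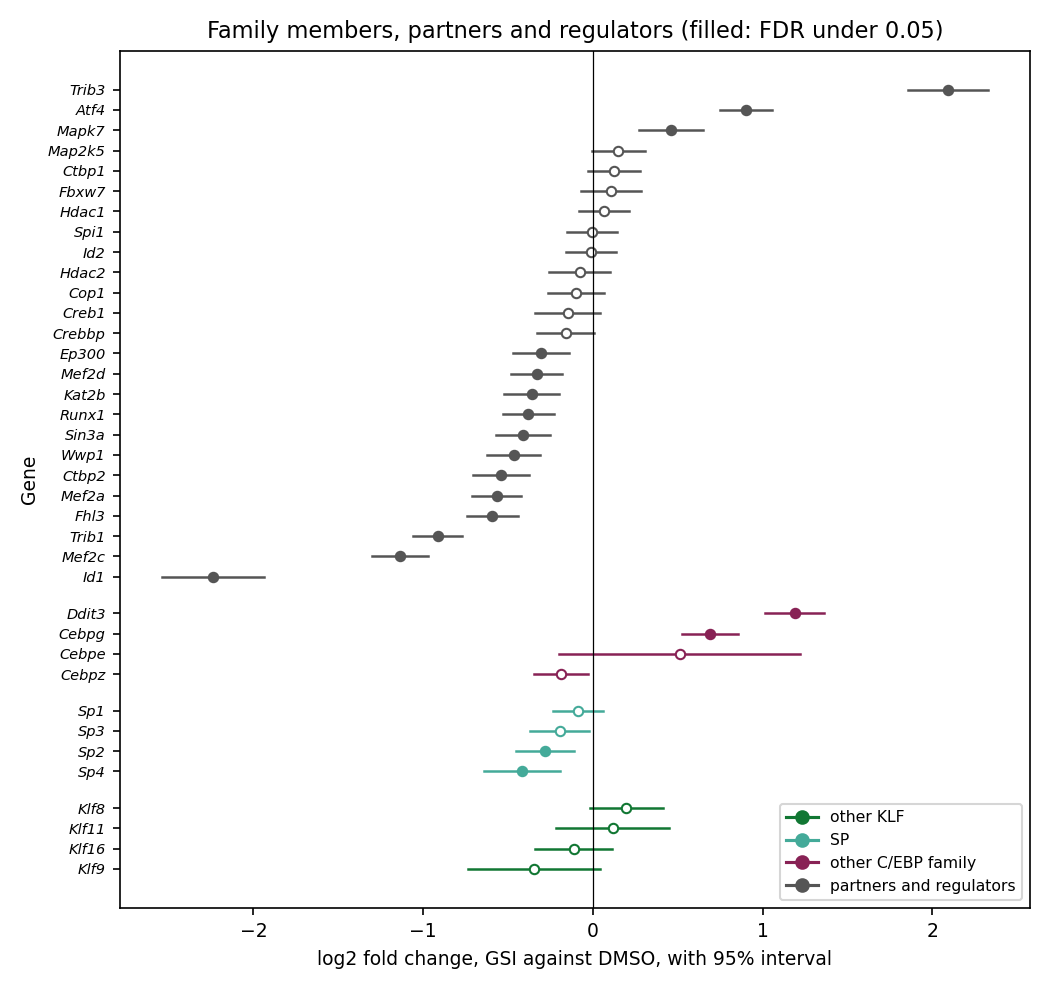
Log2 fold change, GSI against DMSO, with 95% intervals for the tested other KLF, SP and C/EBP genes (Cebpz by name only) and for the partners and regulators, coloured by group. Filled points have an FDR under 0.05, with Ddit3, Atf4 and Trib3 among the higher and Id1, Mef2c and Trib1 among the lower.

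Of 23 tested genes known to be linked to KLF factors, 4 rose, 15 fell and 4 did not pass, with a median log2 fold change of -0.44, beside 40.8% passing (19.0% higher and 21.9% lower) and a median of 0.01 over all genes tested. Mrc1, the mannose receptor gene, fell from 16.1 and 15.3 CPM to 6.16 and 6.64 CPM (-1.29, edgeR FDR = 3.54e-09), and Thbs1, the thrombospondin gene, from 123 and 114 CPM to 22.6 and 27.8 CPM (-2.23, edgeR FDR = 2.34e-13). Ccl5, the chemokine RANTES gene, rose from 361 and 423 CPM to 955 and 938 CPM (1.27, edgeR FDR = 2.38e-10).

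Of 25 tested genes linked to C/EBP factors, 5 rose, 12 fell and 8 did not pass, with a median log2 fold change of -0.17, where 40.8% of all genes tested passed (19.0% as higher, 21.9% as lower). The largest rises were Saa3, an acute-phase gene, from 9.08 and 9.64 to 112 and 103 CPM (3.51, edgeR FDR = 7.91e-17), and Nos2, the inducible nitric oxide synthase gene, from 23.8 and 25.9 to 250 and 240 CPM (3.30, edgeR FDR = 7.91e-17). Lcn2, the siderophore-binding lipocalin gene, rose from 0.139 and 0.370 to 0.910 and 1.03 CPM (1.85, 95% interval 1.10 to 2.59, edgeR FDR = 0.000319). This rests on few counts, 6 and 21 with DMSO and 44 and 51 with GSI. Because DMSO replicate 1 held only 6, Lcn2 was not tested when at least 10 counts in every library were asked for. Csf3, the gene of granulocyte colony-stimulating factor, had 10 and 12 counts with DMSO and 2 and 1 with GSI, a ratio of 0.139 with a 95% exact interval of 0.0267 to 0.463 for counting error only. The next largest falls, named after their values were seen, were those of the cytokine genes Il10 (-1.81, edgeR FDR = 1.11e-10) and Il1b (-1.71, edgeR FDR = 4.81e-12). Some genes stand in both lists. What the lists' changes have to do with any KLF or C/EBP factor was not tested.

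Other values bear on these results. The 4 libraries held 42694655, 56932059, 48483661 and 49511733 counts, with 3 counts being worth 0.0529 to 0.0697 CPM. The share of counts from mitochondrial genes was 0.488% and 0.413% with DMSO, against 0.372% and 0.335% with GSI, and that of the 100 most abundant genes was 27.2% and 27.7%, against 29.0% and 29.1%. Neither measure overlapped between the groups. Hes1, the Notch target meant as a check of the treatment, had 5, 2, 1 and 5 counts and could not be tested, so these libraries gave no check of Notch inhibition from it. Of 10 macrophage markers, 7 fell, 1 rose (Mertk) and 2 did not pass (Cd68 and Spi1), beside 40.8% of all genes tested passing (19.0% higher and 21.9% lower), and their summed level was 13641 and 13823 CPM with DMSO and 10549 and 11547 CPM with GSI. Markers of other cells were low, with summed levels of 0.581 to 1.29 CPM for neutrophils and precursors, 0.0465 to 0.123 for T and NK cells, 0.344 to 0.538 for B cells, 4.28 to 5.58 for dendritic cells, 0.283 to 0.558 for mast cells and basophils, 1.05 to 2.06 for stromal cells and 0.0207 to 0.0405 for erythroid cells. Markers with no count in any library included Elane, Retnlg, Cd3g, Ncr1, Siglech, Cpa3, Mcpt8, Ms4a2, Col3a1 and the 4 globin genes. Among these lists, the dendritic cell marker Xcr1 (log2 fold change -0.42, edgeR FDR = 0.0175) and the endothelial marker Pecam1 (-1.01, edgeR FDR = 0.00211) fell. The part of these differences in the results for the KLF and C/EBP genes was not tested. In bulk RNA, fewer cells of a kind and less RNA per cell cannot be told apart.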

How the data were processed

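The authors sequenced strand-specific libraries of poly(A) RNA, trimmed the reads with Trimmomatic, aligned them to mm10 (GRCm38) with STAR, given as 2.5.0a in the submitters' processing notes, which list mm9 beside mm10 without a role, and counted them with HTSeq. The HTSeq mode and strand setting are not given in the sources used here. The deposited values are raw counts per gene for 16 columns, named by group, replicate and a last number that the labels do not define. The 4 columns of a replicate differed by about the sampling noise (chi-square per degree of freedom 1.01 to 1.03) and were summed. Of the 10 genes, 3 had an unadjusted chi-square p under 0.05 between columns in DMSO replicate 1 (smallest 0.00953). In DMSO replicate 2 it was 1 gene (0.00622), and in each GSI library 0. Of all genes with at least 40 counts, 5.06% to 5.58% had such a p, and 0 passed an FDR of 0.05.

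Counts were tested with the quasi-likelihood functions glmQLFit and glmQLFTest of edgeR 4.0.16 (R 4.3.3, filterByExpr, TMM, group as the only factor, Benjamini-Hochberg adjustment over 13211 genes). CPM used TMM-adjusted library sizes, and log2 CPM for likeness a prior count of 2. The SE was the size of the log2 fold change divided by the square root of F. The smallest p that an exact permutation test can give with 2 against 2 is 0.333. Positions, exons and exon lengths came from GENCODE M21 on GRCm38, promoters from RefSeq on GRCm38.p6 (8 of 10 genes matched).

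Genes named were the 10 members, the called other family genes, the 4 called genes with the largest change in each of the 3 lists, Hes1 and the 3 genes most like Klf2 and Klf7, with exceptions marked. The other family genes and the cell type markers, also those that did not pass, were named outside this rule to account for their lists. One gene that this rule gives is not reported here. The members and the lists were chosen with earlier results of these data known, so no list was tested as such. Alternatives were DESeq2 1.42.0, other normalizations and filters, a likelihood ratio test, glmTreat against 1.5-fold, a replicate block, the 16 columns as samples, transcript length, and leaving out each library. Scripts were tested on simulated data.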

Additional observations from a re-analysis of the deposited data

How the results depend on the processing

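Of 140 alternative values of the 10 genes (14 settings each), 120 kept their direction and their side of the threshold, 15 lost the call, 1 gained it and 4 changed sign, all 4 in genes that did not pass. Klf6 was at 0.0152 with upper quartile normalization, and ranged from -0.0991 to 0.0536 when each library was left out, while Cebpb ranged from -0.17 to 0.33. With glmTreat against 1.5-fold, 0 of the 10 genes passed (1 at an unadjusted p under 0.05), beside 839 of the 13211 genes tested. Passing were 1 of 12 other family genes, 5 of 25 partners and regulators, 5 of 23 KLF-linked genes and 10 of 25 C/EBP-linked genes. This test asks for a larger change by construction. DESeq2 called 5 of the 10 genes (32.0% of all genes tested) and upper quartile normalization 6 (42.3%). The other family genes called were 4, but 7 of 12 with a replicate block (48.8% of all genes) and 8 with the 16 columns as separate samples (60.9%). Those 12 include Cebpz, which was listed by its name only. With the replicate block, 7 of the 10 genes, 15 partners and regulators, 21 KLF-linked, 18 C/EBP-linked and 6444 of all genes passed, against 5392. The difference in log2 CPM between replicates 1 and 2 was taken for each gene in each group. The differences of the 2 groups correlated by 0.155 over 13211 genes and by 0.249 over the 7581 genes of at least 10 CPM. With only 2 pairs, replicates of the same number were not taken as paired samples. With the longest transcript as length, 5 of 10 genes had the same rank with DMSO. When 1 library was left out, its group had 1 library, assumed to vary like the other group. Klf3, Cebpa and Cebpd each lost the call, and Cebpb gained it, in at least 1 of these settings.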
